A study of Mus musculus with 70 samples.

Results

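miR-126a is a microRNA (miRNA) that was counted here as its mature arms, mmu-miR-126a-3p and mmu-miR-126a-5p, which are cut from opposite sides of one hairpin. Both members were chosen by name, and they are 2 of the 1882 distinct miRNAs kept from the count table of the series. Each has a single entry there, and both are among the 1072 miRNAs that passed the filter on low values. The samples were wild-type C57BL/6 mice of both sexes, taken at postnatal day 6 (P6), at postnatal day 15 (P15) or at 8 weeks. Whole brains were digested to single cells, and CD45-positive cells were caught on an antibody-coated plate (immunopanning). These are called microglia, and the CD45-negative cells left over from the same brain, a mixture of all other cell types of the tissue, are called bulk. Small RNA was sequenced from both fractions of 35 mice, and 1 P6 mouse was left out here, so that 68 libraries of 34 mice were compared, of which 10 were P6, 12 were P15 and 12 were 8 weeks old.

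A miRNA is transcribed as a hairpin, from which a duplex of both arms is cut. One arm is usually retained in the silencing complex, where it pairs with messenger RNAs mainly through its seed, bases 2 to 8, and the other arm is mostly lost. miR-126a lies within Egfl7, a gene expressed chiefly by endothelial cells, the cells that line blood vessels. It is known as a miRNA of the endothelium, where its 3p arm restrains inhibitors of growth factor signalling such as Spred1 and supports vascular integrity. Neither endothelial messenger RNAs nor Egfl7 itself were measured in the files used here, so the cell source of the reads is background knowledge and was not tested.

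In the mouse genome (GRCm38), the Mir126a hairpin is at chr2:26591357-26591429 on the plus strand, and the 3p arm is at chr2:26591402-26591423, bases 46 to 67 of the hairpin. Egfl7 spans chr2:26580014-26593120 on the same strand. In the GENCODE annotation the hairpin is intronic in 8 of the 19 Egfl7 transcripts, where it falls in intron 7 of 9 in the transcripts that hold the most introns, it overlaps an exon of 1 transcript (a retained-intron form), and 10 transcripts do not contain it. The sequences are shown because both measurements of the report, the level of each arm and their ratio, refer to this hairpin. They come from RefSeq on GRCm38.p6, which gave a mature sequence for miR-126a-3p. Capitals mark the seed in the mature sequence and the 3p arm in the hairpin.

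miR-126a-3p: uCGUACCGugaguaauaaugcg
Mir126a hairpin: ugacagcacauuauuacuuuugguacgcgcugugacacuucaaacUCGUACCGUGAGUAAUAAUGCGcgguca

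The seed CGUACCG was shared by 0 of the other mature miRNAs among the 1679 names in that table, so miR-126a-3p has no seed family there. The opposite strand of the locus is annotated with a second hairpin, Mir126b, at chr2:26591363-26591420. Its mature arms are shown because their sequences run against those of miR-126a, and 19 bases of miR-126a-3p lie opposite miR-126b-5p. Capitals again mark bases 2 to 8.

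miR-126b-3p: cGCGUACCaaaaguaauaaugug
miR-126b-5p: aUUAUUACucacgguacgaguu

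The libraries held 1678034 to 5982922 counted reads in microglia and 2795957 to 8747394 in bulk. Levels are given as CPM, the reads of a miRNA scaled to a fixed total of counted reads per library, and differences as log2 fold changes from limma-voom after scaling by the trimmed mean of M-values (TMM). A difference was called with TREAT when it exceeded an absolute log2 fold change of 1 at a false discovery rate (FDR) of 0.05 over all 1072 miRNAs. The fewest miR-126a reads in any library compared were 1821 of the 3p arm and 266 of the 5p arm. Marker lists are given to describe the fractions. On a myeloid list, 5 miRNAs (miR-142a-3p, miR-142a-5p, miR-223-3p, miR-511-3p and miR-6983-3p) were called higher in microglia with ages pooled, where 23.3% of all miRNAs were. Their log2 fold changes were 6.23 to 8.09. The sixth on that list, miR-223-5p, had at most 0.614 CPM in a bulk library, so it passed the filter on low values through microglia alone and is not counted. All 7 neuronal miRNAs were called lower, where 21.8% of all miRNAs were, with a median of -2.01. The 5 erythroid miRNAs, which mark red blood cells, were also called higher in microglia, with a median of 2.50. Of these, miR-486a-5p and miR-486b-5p had nearly the same counts. The directions of the myeloid and neuronal miRNAs went with the library labels, and red cell miRNAs were present in the microglial fraction. The lists were chosen with earlier results of these data known. The paper ranks the 5 myeloid miRNAs among the most enriched in microglia from the same data. The myeloid list is therefore no independent check of the labels.

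Both arms of miR-126a were far scarcer in microglia than in bulk cells at every age. In microglia, miR-126a-3p ranged from 1085 to 3720 CPM at P6 with a median of 1961, from 1044 to 4612 CPM at P15 with a median of 2376, and from 1521 to 5856 CPM at 8 weeks with a median of 3017. In bulk it ranged from 9444 to 32982 CPM at P6 with a median of 25214, from 12195 to 39795 CPM at P15 with a median of 30537, and from 10981 to 19962 CPM at 8 weeks with a median of 14965. The highest microglial library stayed below the lowest bulk library at each age, so the fractions did not overlap. The share of other miRNAs whose fractions were also separate was not counted, so how unusual this separation is was not tested. With ages pooled, 85.4% of all miRNAs tested differed between the fractions in limma without a fold threshold.

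miR-126a-5p was the rarer arm in all of these libraries. Its level in microglia ranged from 159 to 530 CPM at P6 with a median of 223, from 148 to 631 CPM at P15 with a median of 256, and from 226 to 733 CPM at 8 weeks with a median of 400. In bulk its level ranged from 992 to 3266 CPM at P6 with a median of 2189, from 1154 to 3419 CPM at P15 with a median of 2730, and from 995 to 2326 CPM at 8 weeks with a median of 1746. The fractions did not overlap for this arm at any age either, and here too the share of other miRNAs with separate fractions was not counted.

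**Figure D1:**
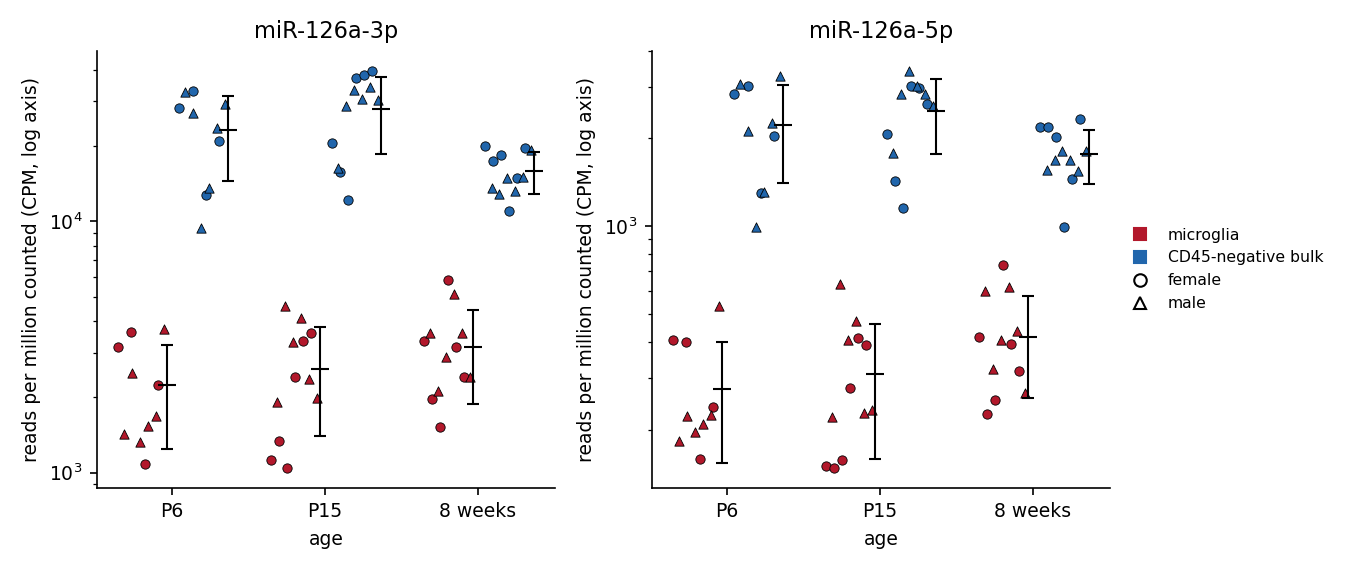
Levels of miR-126a-3p (left) and miR-126a-5p (right) in each library, in CPM on a log axis, by age and fraction, with circles for female and triangles for male mice and bars for the mean ± SD of a group. Every microglial library lies below every bulk library of the same age, and for miR-126a-3p the bulk libraries of 8 weeks (10981 to 19962 CPM) lie in a narrower band than those of P15 (12195 to 39795 CPM).

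Together the arms made up 0.303% ± 0.134 of the counted reads of a microglial library and 2.44% ± 0.964 of a bulk library (SD, n = 34 each). Ranked by mean CPM among the 1882 miRNAs, miR-126a-3p stood in bulk at position 11 in P6 mice, 9 in P15 mice and 14 in adults. In microglia the same arm stood at position 57, 49 and 42. The 5p arm moved from position 165 to 150 to 120 in microglia, and stood at 53, 55 and 66 in bulk.

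With ages pooled, miR-126a-3p was 8.11-fold lower in microglia, a log2 fold change of -3.02 ± 0.12 (SE), with a TREAT adjusted p of 3.22e-25. miR-126a-5p was 6.40-fold lower, a log2 fold change of -2.68 ± 0.11 (SE), with a TREAT adjusted p of 2.60e-22. The sign was the same in 34 of 34 mice for each arm. Of all miRNAs tested, 21.8% were called lower in microglia in this comparison and 23.3% were called higher. By the size of its decrease miR-126a-3p stood at position 10 of 1072 and miR-126a-5p at position 20.

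At P6, where 10.6% of miRNAs were called lower in microglia, the log2 fold change was -3.44 ± 0.22 (SE) for miR-126a-3p and -3.07 ± 0.21 for miR-126a-5p, with TREAT adjusted p of 1.04e-15 and 9.00e-14. At P15, where 18.7% were called lower, the values were -3.29 ± 0.19 and -2.88 ± 0.18, with TREAT adjusted p of 5.09e-17 and 2.31e-14. At 8 weeks, where 23.7% were called lower, they were -2.33 ± 0.19 and -2.08 ± 0.18, with TREAT adjusted p of 5.37e-09 and 1.87e-07. Each arm was lower in the microglia of all 10 P6, all 12 P15 and all 12 adult mice. The position of miR-126a-3p by size of decrease went from 6 at P6 and 10 at P15 to 136 at 8 weeks.

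**Figure D2:**
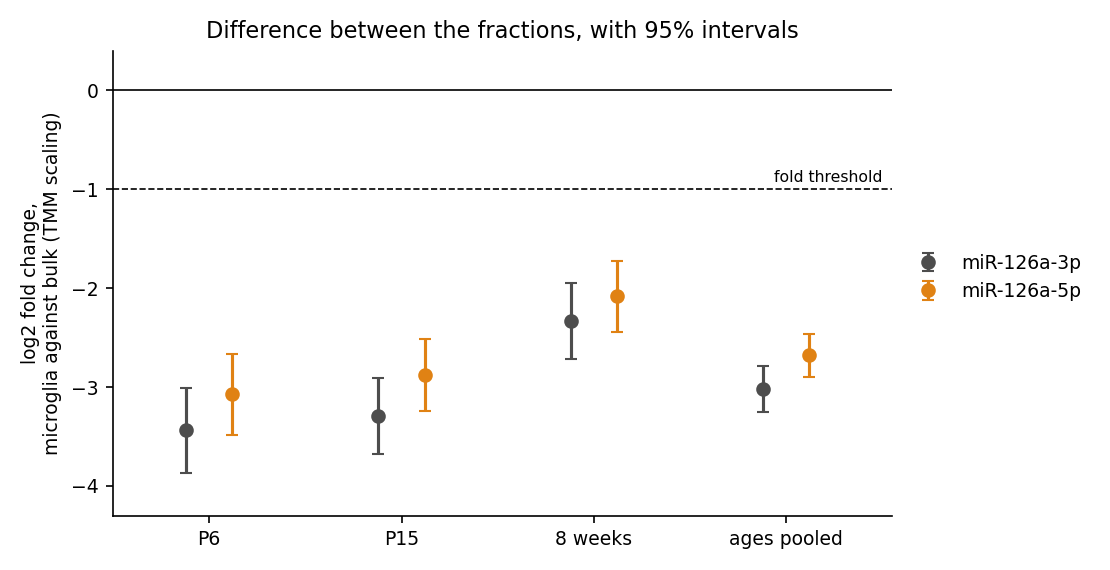
Log2 fold change of each arm between microglia and bulk (points) with its 95% interval (bars), by age and with ages pooled. The dashed line marks the fold threshold of the test, and the estimate for miR-126a-3p is nearer to 0 at 8 weeks (-2.33) than at P6 (-3.44) or P15 (-3.29).

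The gap between the fractions was narrower in adults than in pups. The test of this difference between differences (the interaction of fraction and age) gave 1.10 ± 0.29 (SE) on the log2 scale for miR-126a-3p and 0.99 ± 0.27 for miR-126a-5p between P6 and 8 weeks. In limma without a fold threshold the adjusted p were 0.000966 and 0.00171, and 17.9% of all miRNAs were called in the same direction by that rule. Between P15 and 8 weeks the interaction was 0.96 ± 0.27 for the 3p arm and 0.79 ± 0.26 for the 5p arm, with limma adjusted p of 0.00362 and 0.0109 and 11.0% of miRNAs called in that direction. Between P6 and P15 it was 0.15 ± 0.29 and 0.20 ± 0.27, with limma adjusted p of 0.754 and 0.644, where 13.5% of miRNAs were called higher. None of these interactions passed TREAT, which tests whether a log2 difference is above 1 by more than its error: the adjusted p of the 3p arm was 0.860 between P6 and 8 weeks, where 14.6% of miRNAs were called in either direction, and 1 between P15 and 8 weeks, where 3.36% were. The interactions of 8 weeks with P6 and with P15 passed without the fold threshold under each of the other scalings, with mouse as fixed replicate block, and when any 1 mouse was left out.

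Within each mouse, microglial miR-126a-3p was 4.36% to 14.0% of the bulk level at P6 (median 10.9%), 5.51% to 16.1% at P15 (median 8.68%) and 8.25% to 53.3% at 8 weeks (median 18.04%), from the CPM of both libraries. The highest share was that of 8-week female mouse 4, whose microglial library was the highest of its age (5856 CPM) and whose bulk library was the lowest (10981 CPM). The next highest was 39.0%, in 8-week male mouse 4. The summed erythroid miRNAs of female mouse 4 were 1486% of the bulk level, the highest of the adult mice. Those of male mouse 4 were 925%, the next highest, against an adult median of 435%. Female mouse 4 also had the highest adult shares of the mural cell and fibroblast list (175%), the list of other endothelial miRNAs (219%) and the myeloid list (11363%), and its neuronal share was the lowest (9.65%). In male mouse 4 the mural, endothelial, myeloid and neuronal shares were 112%, 198%, 8002% and 12.8%. The adult medians were 86.6%, 174%, 7761% and 15.5%. These 8-week mice were looked at after their values were seen. The part of the cells of these lists in the level of miR-126a was not tested. For miR-126a-5p the medians were 12.7%, 12.2% and 20.8%. In bulk fractions such as these, fewer cells that hold the miRNA and less of it per cell cannot be told apart.

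miRNAs of other cell types did not follow one course across the ages. The summed level of the 7 neuronal miRNAs in microglia was a median of 34.3% of the bulk level at P6, 24.7% at P15 and 15.5% at 8 weeks, and that of the 4 oligodendrocyte miRNAs was 41.2%, 8.96% and 7.04%. The 4 miRNAs of choroid plexus and ependymal cells stood at 35.9%, 12.9% and 11.3%. The 9 miRNAs of mural cells and fibroblasts, which wrap and surround vessels, stood at 115%, 61.4% and 86.6%, and the 5 erythroid miRNAs at 630%, 930% and 435%. In P6 microglia, miR-199a-3p and miR-199b-3p of the mural list had nearly the same total counts (19342 and 19346). So had miR-486a-5p and miR-486b-5p of the erythroid list (1062 and 1056). The members of each pair are therefore not independent, although both are counted in the sums. The list of other endothelial miRNAs stood at 149%, 153% and 174%. Abundant members weighed most in this sum: at 8 weeks its microglial mean was 79761 CPM, with 27046 for miR-24-3p, 13784 for miR-23a-3p and 12441 for miR-27a-3p. The median log2 fold change of its tested members against bulk was 0.15, 0.11 and 0.19 at the 3 ages. At 8 weeks it was -0.11 without miR-126b-3p, which passed the filter on low values through microglia alone. The part of cells carried over from one fraction to the other in the levels of miR-126a was not tested.

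**Figure D3:**
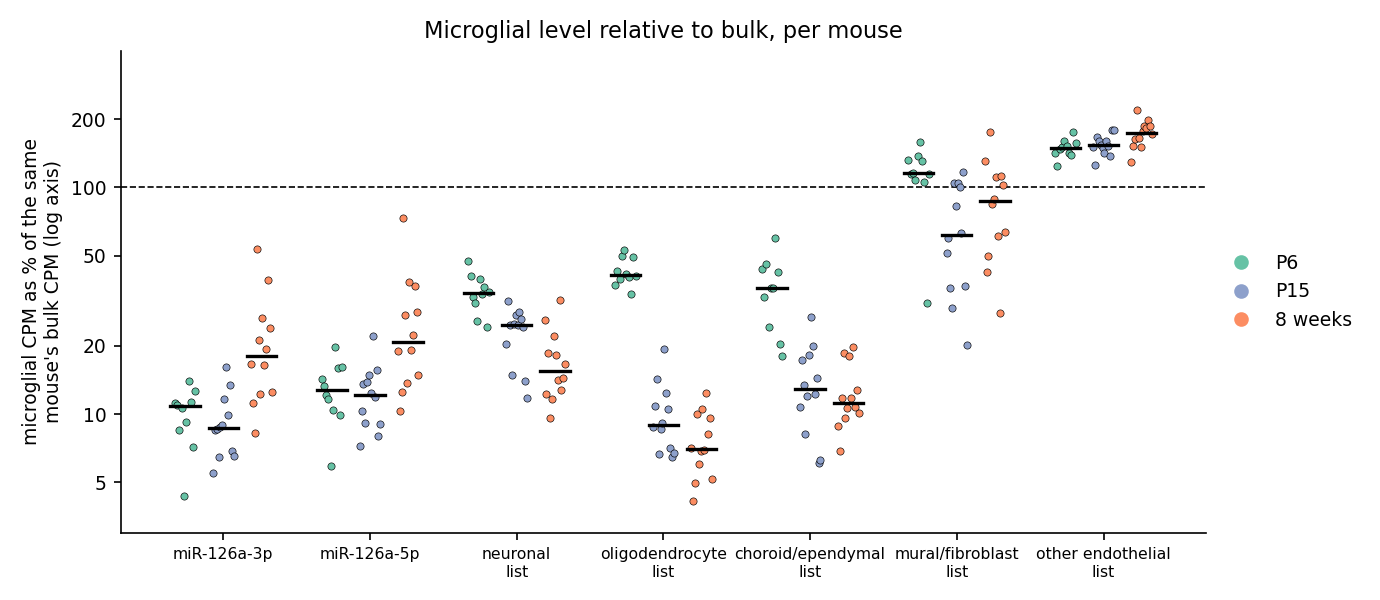
Microglial CPM as a percentage of the bulk CPM of the same mouse (log axis) for each arm of miR-126a and for the summed levels of marker lists, by age, with 1 point per mouse, a bar for the median and a dashed line where the fractions are equal. The medians of miR-126a-3p are 10.9%, 8.68% and 18.04% from P6 to 8 weeks, and those of the neuronal list fall from 34.3% to 15.5%.

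Differences between ages within a fraction depended on the scaling and on the fold threshold. In microglia, miR-126a-3p was higher at 8 weeks than at P6 by 0.95 ± 0.23 (SE) on the log2 scale and than at P15 by 0.67 ± 0.22, and miR-126a-5p by 1.03 ± 0.22 and 0.81 ± 0.20. The limma adjusted p without a fold threshold were 0.000344 and 0.00957 for the 3p arm and 5.19e-05 and 0.000827 for the 5p arm. By that rule 23.6% of miRNAs were called higher at 8 weeks than at P6 and 17.7% higher than at P15. With TREAT neither arm was called in microglia (adjusted p of 1), where 16.6%, 4.57% and 2.89% of miRNAs were called in either direction between P6 and 8 weeks, P15 and 8 weeks, and P6 and P15. The levels at different ages overlapped: 2 of the 12 microglial libraries of 8 weeks had more miR-126a-3p in CPM than any library of P6. Between P6 and P15 the differences in microglia were 0.29 ± 0.23 and 0.22 ± 0.22, with limma adjusted p of 0.373 and 0.478.

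These age differences in microglia were smaller when libraries were scaled by their totals alone. The 3p arm then differed by 0.48 ± 0.25 (SE) between P6 and 8 weeks and by 0.34 ± 0.24 between P15 and 8 weeks, with limma adjusted p of 0.0958 and 0.239 and no fold threshold, and the 5p arm by 0.57 ± 0.24 and 0.48 ± 0.22, with adjusted p of 0.0372 and 0.0706. The median of all 1072 miRNAs between P6 and 8 weeks moved with it, from -0.17 under TMM to -0.64 under library totals. Against that median both arms were higher at 8 weeks under either scaling.

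In bulk, neither arm was called between any ages with TREAT (adjusted p of 1), where 3.54% of miRNAs were called between P6 and P15, 11.0% between P15 and 8 weeks and 25.7% between P6 and 8 weeks. The log2 differences of miR-126a-3p were 0.14 ± 0.20 (SE) from P6 to P15, -0.29 ± 0.19 from P15 to 8 weeks and -0.15 ± 0.20 from P6 to 8 weeks. Those of miR-126a-5p were 0.03 ± 0.19, 0.02 ± 0.18 and 0.04 ± 0.19. Under library totals the difference from P15 to 8 weeks was -0.76 ± 0.20 for the 3p arm and -0.45 ± 0.20 for the 5p arm, so the sign of the 5p arm turned. The mean of miR-126a-3p in bulk was 28103 ± 9540 CPM (SD, n = 12) at P15 and 15837 ± 3010 CPM (SD, n = 12) at 8 weeks. The median of all miRNAs between these ages was 0.24 under TMM and -0.23 under library totals.

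The spread between mice was wide in pups. At P6, female mouse 3, male mouse 3 and male mouse 4 had 12713, 9444 and 13531 CPM of miR-126a-3p in bulk, and the other 7 mice had 20910 to 32982 CPM. At P15, female mice 1, 2 and 3 and male mouse 1 had 20482, 15725, 12195 and 16305 CPM of miR-126a-3p in bulk, and the other 8 mice had 28710 to 39795 CPM. The 5p arm was split in the same way, with 2068, 1429, 1154 and 1781 CPM in those mice against 2577 to 3419 CPM in the others. The same 4 mice were the lowest of P15 in microglia too, with 1128, 1338, 1044 and 1909 CPM of miR-126a-3p against 1987 to 4612 CPM. At P6 the microglial values of the 3 mice, 1085, 1323 and 1537 CPM, overlapped those of the others, 1424 to 3720 CPM. These mice of both ages are named after their values were seen, and the labels give no batch that sets them apart.

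Neither arm was called between the sexes with TREAT, edgeR or DESeq2. The largest difference was in P15 microglia, where miR-126a-3p was 1044 to 3583 CPM in 6 females and 1909 to 4612 CPM in 6 males, and the ranges overlapped. Of the 4 mice that were low in both fractions at P15, 3 were female. The log2 difference of males from females was 0.53 ± 0.31 (SE) with a limma adjusted p of 0.959 without a fold threshold and an unadjusted p of 0.0867. With TREAT 0% of miRNAs were called there. In the other ages and fractions the unadjusted limma p of both arms were between 0.258 and 0.911.

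The 3p arm outnumbered the 5p arm in every library, but less so in microglia. In microglia there were 6.73 to 11.2 miR-126a-3p reads per miR-126a-5p read at P6 with a median of 7.66, 6.65 to 10.3 at P15 with a median of 8.55, and 6.00 to 9.01 at 8 weeks with a median of 7.99. In bulk the ratio was 9.01 to 12.7 at P6 with a median of 10.3, 9.15 to 15.2 at P15 with a median of 10.8, and 7.62 to 11.0 at 8 weeks with a median of 8.91. The ranges of the fractions overlapped at each age, although 7 of 10 microglial libraries at P6, 10 of 12 at P15 and 5 of 12 at 8 weeks lay below every bulk library of their age.

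The means of the ratio were 8.07 ± 1.41, 8.41 ± 0.962 and 7.63 ± 0.998 in microglia and 10.3 ± 1.01, 11.2 ± 1.69 and 9.06 ± 1.15 in bulk (SD, n = 10, 12 and 12). As a share of the reads of both arms, miR-126a-3p made up 88.8% ± 1.40 in microglia and 90.9% ± 1.22 in bulk (SD, n = 34 each). In the library with the fewest reads, the microglia of P6 female mouse 3, 1821 of 2087 reads were of the 3p arm, a share of 87.3% with a 95% Wilson interval of 85.8% to 88.6%. Intervals of this kind cover counting error only.

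The log2 ratio was lower in microglia than in bulk by 0.34 with ages pooled (-0.34 ± 0.05 SE, limma adjusted p of 1.23e-09 over 323 hairpins with both arms), a microglial ratio 0.789 times that of bulk. It was lower in 32 of 34 mice, and 19.5% of hairpins were called lower in this comparison. The difference was -0.36 ± 0.08 at P6 with a limma adjusted p of 0.000495, where 13.6% were called lower. At P15 it was -0.41 ± 0.08 with a limma adjusted p of 8.91e-06, where 9.91% were called lower. At 8 weeks it was -0.25 ± 0.08 with a limma adjusted p of 0.00642, where 16.7% were called lower. All 10 P6 and all 12 P15 mice had the lower ratio in microglia, and 10 of 12 adult mice did. The exceptions were 8-week female mouse 2, at 8.66 in microglia against 7.96 in bulk, and 8-week male mouse 4, at 8.33 against 7.81. An exact permutation test by sign flips of the mice, two-sided, gave p of 0.00195 for P6, 0.000488 for P15 and 0.00342 for 8 weeks.

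**Figure D4:**
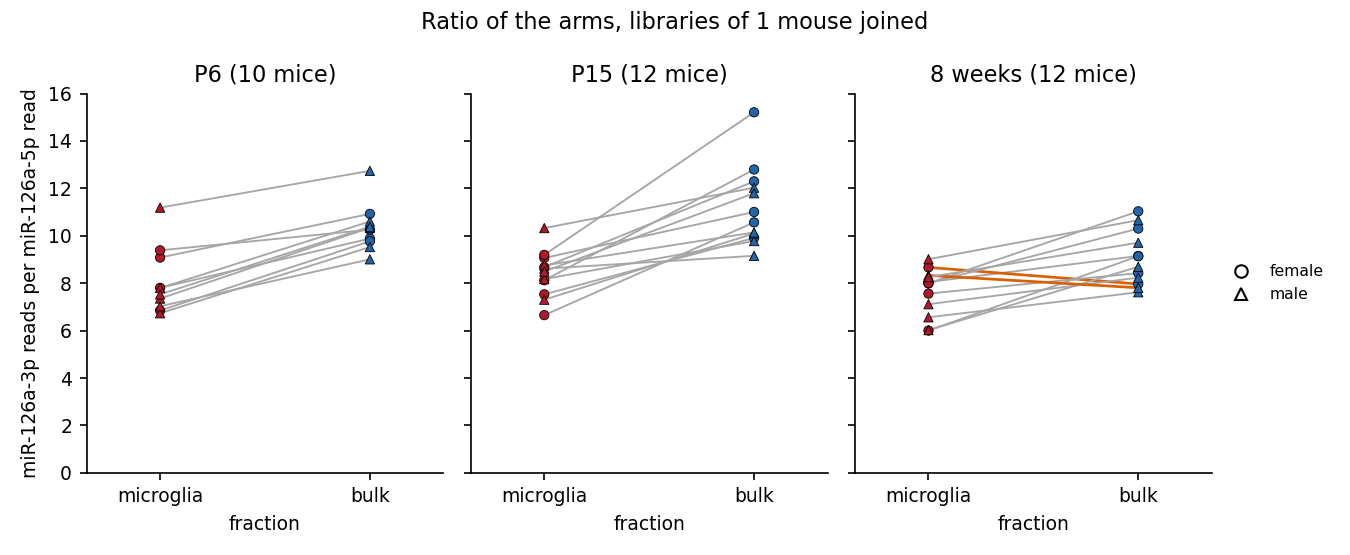
Reads of miR-126a-3p per read of miR-126a-5p in the microglia and bulk libraries of each mouse, joined by a line, at each age, with circles for female and triangles for male mice. The ratio was lower in microglia in 32 of 34 mice, and orange lines mark the exceptions at 8 weeks.

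A difference of this size was common among hairpins. The median absolute log2 difference over the 323 hairpins was 0.353 with ages pooled, and 152 of them differed by less than miR-126a. Called differences in either arm's favour were therefore frequent, and that of miR-126a was near the middle of the range. When each library was thinned to 2087 miR-126a reads, the difference passed the threshold with ages pooled and at each age.

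Between ages the ratio was called in bulk from P15 to 8 weeks, and not in microglia. In bulk it was lower at 8 weeks than at P15 by 0.31 on the log2 scale (-0.31 ± 0.08 SE, limma adjusted p of 0.00172), where 12.4% of hairpins were called lower. Against P6 the bulk ratio at 8 weeks differed by -0.19 ± 0.09 with a limma adjusted p of 0.0620, where 16.4% were called lower. In microglia the differences between ages ran from -0.14 to 0.06 with limma adjusted p of 0.213 to 0.724. The interactions of fraction and age for the ratio were between -0.05 and 0.16, with limma adjusted p of 0.359 to 0.892, so a change of the gap with age was not shown for the ratio.

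Mice with a high ratio in bulk also had a high ratio in microglia. After the mean of each age, sex and fraction was subtracted, the log2 ratios of the fractions correlated across the 34 mice with Pearson's r of 0.547 (permutation p of 0.00227, adjusted p of 0.00681 over the 3 relations computed) and Spearman's rho of 0.494 (permutation p of 0.00594, adjusted p of 0.0178). Without the 2 mice farthest from the median r was 0.4997, and by age it was 0.886 for P6, 0.596 for P15 and 0.303 for 8 weeks. For the level of miR-126a-3p r was 0.402 (permutation p of 0.0394, adjusted p of 0.0591) and rho 0.411 (adjusted p of 0.0511), with 0.420 without the 2 farthest mice. By age this r was 0.527 for P6, 0.728 for P15 and -0.522 for 8 weeks, so the relation did not hold at 8 weeks. For miR-126a-5p r was 0.240 (permutation p of 0.215) and rho 0.277 (permutation p of 0.131), with 0.313 without the 2 farthest mice and 0.446, 0.624 and -0.593 by age. These relations were chosen after the values were seen.

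**Figure D5:**
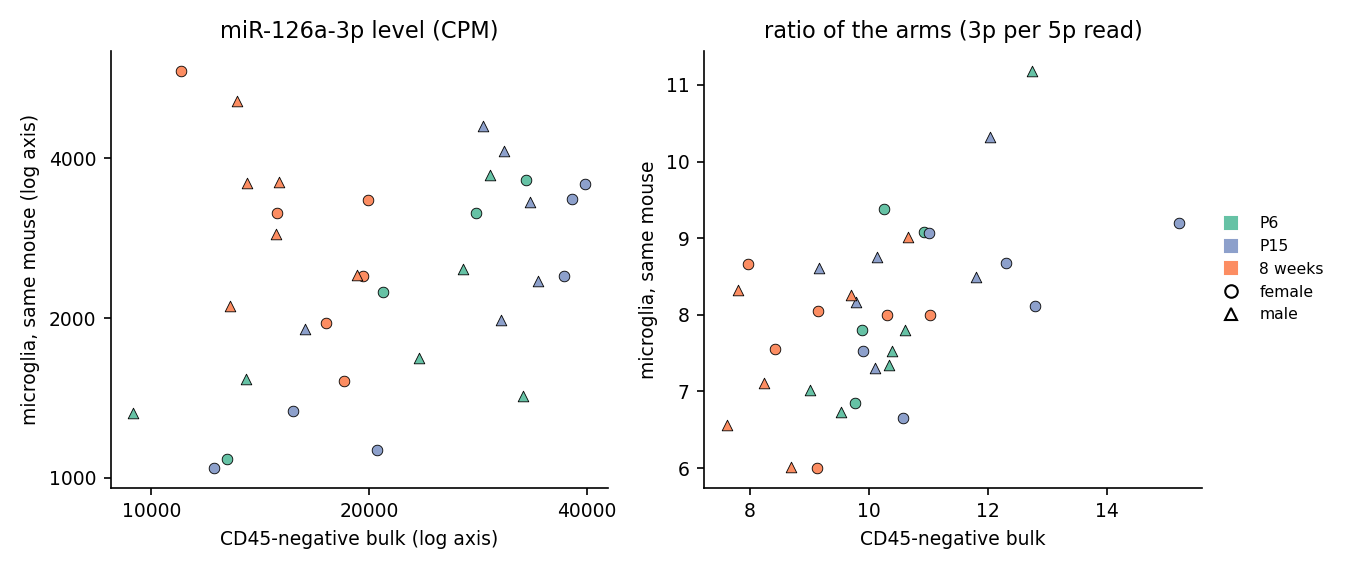
Microglia (vertical axis) against bulk (horizontal axis) of the same mouse for the level of miR-126a-3p in CPM (left, log axes) and for the ratio of the arms (right), with colours for age and circles for female and triangles for male mice. On the left the adult mice lie between 10981 and 19962 CPM in bulk, and on the right mice with a high ratio in one fraction tend to have a high ratio in the other (r of 0.547 after group means were subtracted).

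Most other miRNAs with known roles in endothelial cells were not called lower in microglia as miR-126a was. Of 18 such miRNAs on a list, 17 were tested, and with ages pooled 7 were called higher in microglia, 1 was called lower and 9 did not pass TREAT. Over all miRNAs tested 23.3% were called higher and 21.8% lower. One of the 7, miR-126b-3p, passed the filter on low values through microglia alone, since no bulk library held more than 0.746 CPM of it, and without it 6 of 16 were called higher and the median log2 fold change of the 16 was 0.06, against 0.29 over all miRNAs. The log2 fold change was negative for 8 of the 16, and each of the 16 had an unadjusted limma p under 0.05 without the fold threshold. By that test 85.4% of all miRNAs passed an FDR of 0.05. The one called lower was miR-100-5p, which acts on mTOR in vessels, at -1.40 ± 0.10 (SE, TREAT adjusted p of 0.000329). The largest other differences among those called higher were miR-503-5p at 2.47, miR-23a-3p at 2.41, miR-322-5p, of the same cluster as miR-503, at 2.05 and miR-92a-3p, of the cluster that also holds miR-17, at 1.87. Most of these miRNAs are also made by other cell types, so the list marks no single one. At 8 weeks, again without miR-126b-3p, 7 of 16 were called higher, where 21.2% of all miRNAs were, and those called lower were miR-100-5p at -2.46 and miR-222-3p, which acts with miR-221 on KIT in endothelial cells, at -1.69. With age in microglia, from P6 to 8 weeks, 4 of the 16 were called higher and 3 lower with TREAT, where 7.18% and 9.42% of all miRNAs were, and their median difference was 0.63 against -0.17 over all miRNAs. Between the fractions with ages pooled, the 9 mural cell and fibroblast miRNAs did not pass TREAT in either direction, with log2 fold changes of -0.91 to -0.03 (-0.86 to -0.03 without miR-143-5p and miR-214-5p, which passed the filter on low values through bulk alone), and 6 of them had an unadjusted limma p under 0.05 without the fold threshold.

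The strand opposite miR-126a gave few reads, and they were found mainly in microglia. miR-126b-3p had 160 reads over the 34 microglial libraries, with at least 1 in 31 of them and at most 14 in any, and 26 reads over the 34 bulk libraries, with at least 1 in 8 and at most 6. That is 1.16 CPM over the pooled microglial reads and 0.142 CPM over the pooled bulk reads, the opposite order to miR-126a. miR-126b-5p had 55 reads in microglia and 2 in bulk, and did not pass the filter on low values. A count of 3 reads corresponded to 0.501 to 1.79 CPM in a microglial library, so most single libraries were near this floor. How reads of the overlapping strands were assigned was not given in the sources used here.

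Across all 68 libraries, the level of miR-126a-3p was most like that of its other arm (Pearson's r of 0.990 over TMM log2 CPM). The 5 most similar other miRNAs were miR-193a-3p (r of 0.886), miR-300-5p (0.874), miR-218-5p (0.872), miR-341-3p (0.871) and miR-138-5p (0.867). The difference between the fractions enters these values, and its part in their order was not tested. The values share libraries, depth and fraction, and are given as a description.

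Within the groups a different set came first. After subtraction of group means, the miRNAs most like miR-126a-3p over the 34 bulk libraries were miR-27a-3p (r of 0.890), miR-23a-3p (0.847), miR-150-5p (0.825), miR-21a-5p (0.734) and miR-27b-3p (0.733), and the 5p arm stood at 0.926. miR-27a-3p and miR-23a-3p are of one cluster, and they, with miR-27b-3p, were also on the endothelial list, although the median r of that list was -0.04. Over the 34 microglial libraries the first were miR-150-5p (r of 0.767), a miRNA known from lymphocytes, miR-12206-5p (0.607), miR-143-5p (0.590), miR-139-5p (0.567) and miR-145a-5p (0.565), and the 5p arm stood at 0.941. The value for miR-143-5p rests on few reads, since its microglial libraries held 15 reads in all at P6, 23 at P15 and 31 at 8 weeks. miR-143-5p and miR-145a-5p are of a cluster known from smooth muscle cells and pericytes. The median r of the 9 mural cell and fibroblast miRNAs was 0.486 in microglia, against 0.04 over all other miRNAs. In bulk it was 0.242, against -0.07 over all other miRNAs. The endothelial list had a median r of -0.09 in microglia. miR-150-5p was thus among the 5 most similar miRNAs in both fractions.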

How the data were processed

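Total RNA of microglia and of CD45-negative bulk cells was made into small RNA libraries by the authors with the MGIEasy chemistry. Per the labels and the study's methods, adapters were removed and reads over 18 bases were kept with fastp (version 0.20.0), and reads were matched to mature miRNAs of miRBase and then to mm10/GRCm38 with miRDeep2. The authors deposited raw counts per miRNA, with no normalization and no replicate pooled, for 70 libraries of 35 mice. Whether molecular identifiers were used to remove amplification duplicates is not given in the sources used here, so counts are read as reads.

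Both libraries of P6 female mouse 6 were left out here: the study dropped 1 outlying mouse, and this mouse is the one its list of source data lacks, so its identity is inferred. Where a name had several entries (79 names) the entry with the largest total was kept. miRNAs were tested if 5 or more libraries reached 1 CPM, which left 1072. The model was limma-voom (R 4.3.3, with edgeR 4.0.16 and limma 3.58.1), with TMM scaling, 12 group means of age, sex and fraction, and mouse as random effect. The test was TREAT at a log2 fold change of 1 and FDR of 0.05 with Benjamini-Hochberg adjustment over all miRNAs. Libraries are paired because the titles give both fractions the same mouse, and their values correlated within mice (consensus 0.124). The arm ratio was log2 of (3p count + 0.5) over (5p count + 0.5), fitted with limma over 323 hairpins without a fold threshold, and by permutation (sign flips within mice, exchange of libraries between ages, 100000 draws where not exact). The fit was tested on simulated data. Alternatives were DESeq2 (1.42.0), edgeR's quasi-likelihood test, other scalings, filters, pseudocounts and blocks, entries of 1 name summed, thinning, and each mouse left out.

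miR-126a was described in every comparison. Of the endothelial list, miRNAs called with ages pooled were named, up to 5 in each direction by size, and for likeness the 5 with the highest Pearson's r. The members and lists were chosen with earlier results of these data known.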

Additional observations from a re-analysis of the deposited data

Results flagged for a closer look

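Of 36 groups of one age, sex and fraction (for the level of each arm and for their ratio), 5 held a mouse far from the rest by Dixon's criterion, and chance gives about 1 in 20. In bulk of 8-week males, miR-126a-3p of mouse 6 was the highest at 19253 CPM. In bulk of P15 males, miR-126a-3p of mouse 1 was the lowest at 16305 CPM. In microglia of 8-week females, miR-126a-5p of mouse 4 was the highest at 733 CPM. In microglia of P6 males, miR-126a-5p of mouse 6 was the highest at 530 CPM. In microglia of P6 males, the ratio of the arms in mouse 2 was the highest at 11.2, and the bulk ratio of that mouse was also the highest of its age and sex, at 12.7.

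The gap between microglia and bulk differed between ages in limma without a fold threshold. From P15 to 8 weeks it narrowed by 0.96 on the log2 scale for miR-126a-3p and by 0.79 for miR-126a-5p, and from P6 to 8 weeks by 1.10 and 0.99. None of these passed TREAT.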

How the results depend on the processing

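The difference between microglia and bulk in the level of each arm, and in their ratio, kept its direction and its call with ages pooled and at each age under every alternative run. Without each mouse in turn, the pooled difference ran from -3.07 to -2.99 for miR-126a-3p, from -2.73 to -2.65 for miR-126a-5p and from -0.35 to -0.33 for the log2 ratio. With mouse as fixed replicate block the pooled values were -3.01, -2.67 and -0.34, and no paired call differed.

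Dropping the fold threshold brought calls for 8 weeks against younger ages in microglia (0.67 and 0.81 against P15, 0.95 and 1.03 against P6, for the 3p and 5p arms) and for the interactions (0.96 and 0.79, and 1.10 and 0.99). The further alternatives for these calls were chosen after seeing the data. With library totals in place of TMM the calls were lost for microglial miR-126a-3p against P15 (0.34) and P6 (0.48) and for miR-126a-5p against P15 (0.48), and in bulk the sign of miR-126a-5p turned from P15 to 8 weeks (-0.45) and from P6 to 8 weeks (-0.27). The arm ratio in bulk from P6 to 8 weeks was called with a pseudocount of 5 (-0.19), with P6 female mouse 6 included (-0.21), after thinning (-0.29) and by permutation (-0.20), and ran from -0.22 to -0.16 without each mouse in turn, being called without 8-week female mouse 4, 8-week male mouse 5, 8-week male mouse 6 or P6 male mouse 6. The cause of these changes was not tested. Depth limits miR-126b, miR-143-5p and miR-214-5p, whose counts lie near the floor.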
